A study of Homo sapiens with 4 samples.

Results

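The proteasome is the protease that degrades most of the proteins a cell marks with ubiquitin, and the genes that encode its subunits, its activators and its assembly factors were followed here in A549 cells with and without a knockdown of the m6A reader YTHDF2. The genes were taken by name from the deposited expression table, as every symbol made of PSMA, PSMB, PSMC, PSMD, PSME, PSMF or PSMG and a number with nothing after it. This gave 47 genes of the 28283 in the table, and their m6A peaks were taken by gene identifier from both deposited peak lists. Of the 47 genes, 45 had at least 1 FPKM (a read level per unit of transcript length that is scaled for sequencing depth) in at least 1 of the input libraries. PSMB11, the beta subunit of the thymus, was listed at 0 FPKM in the shNC input and at 0.0185 FPKM in the shY2-2 input. PSMG4, an assembly chaperone, was at 0.826 and 0.975 FPKM, just under the limit, while PSMB9 was just above it at 1.90 and 2.08 FPKM.

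The samples came from A549, an established line of human lung adenocarcinoma. The control cells, shNC, carried a control vector (PLKO_1 in the sample labels), and the shY2-2 cells carried an shRNA against YTHDF2; per the methods of the study, both kinds of construct were delivered by lentivirus as stable lines. Each line gave 1 input library of poly(A) RNA and 1 library of RNA immunoprecipitated with an antibody against m6A. No library was repeated, so every difference below describes this pair of libraries, has no replicate error and was given no test.

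The targeted gene was at 3.56 FPKM in the shNC input and at 1.02 FPKM in the shY2-2 input. Its log2 ratio, on the scale of FPKM + 1 that is used for all ratios below, was -1.18. The 5 epithelial genes, keratins and adhesion molecules, that served as a check of cell identity (EPCAM, CDH1, KRT8, KRT18 and KRT19) were all expressed, with a summed level of 948 FPKM in shNC and 622 FPKM in shY2-2, and each of the 5 was lower in shY2-2. The markers of fibroblasts and endothelial cells were at or below 1.64 FPKM in both inputs, and of 3 leukocyte markers only CD68 passed 1 FPKM, at 12.2 and 10.2. SFTPC, the marker of alveolar type II cells that the table lists, was near 0 in both. The part of the lower epithelial markers in the results below was not tested.

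A 26S proteasome is built from a barrel and a cap. The barrel, the 20S particle, has outer rings of alpha subunits, which gate the entry, and inner rings of beta subunits, of which PSMB5, PSMB6 and PSMB7 cut peptide bonds. The cap has a base, with a ring of ATPases that unfolds substrates and non-ATPase subunits that receive ubiquitin, and a lid that removes ubiquitin before the protein enters the barrel. In immune cells, or after interferon, the catalytic subunits are replaced by PSMB8, PSMB9 and PSMB10. YTHDF2 binds RNAs that carry m6A and is known for bringing them to the deadenylation and decay machinery.

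Across the 45 expressed genes, RNA levels were mostly somewhat higher in the shY2-2 input. The median log2 ratio was 0.20, with a range from -0.23 for PSME4 to 0.61 for PSMB2, and the median over all 12268 genes that passed the same FPKM limit was 0.002. A ratio above 0 was found for 34 of the 45 genes, where 50.3% of all genes had one. Of the 45, 19 were at least 25% higher in shY2-2, against 18.5% of all genes, and none was at least 20% lower, the same limit in the other direction, against 21.0% of all genes. No proteasome gene differed by 2-fold in either direction, where 0.986% of all genes were at least 2-fold higher and 2.14% at least 2-fold lower. The FPKM summed over the members was 1671 in shNC and 2001 in shY2-2, which was 0.736% and 0.841% of the sum over the whole table.

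**Figure D1:**
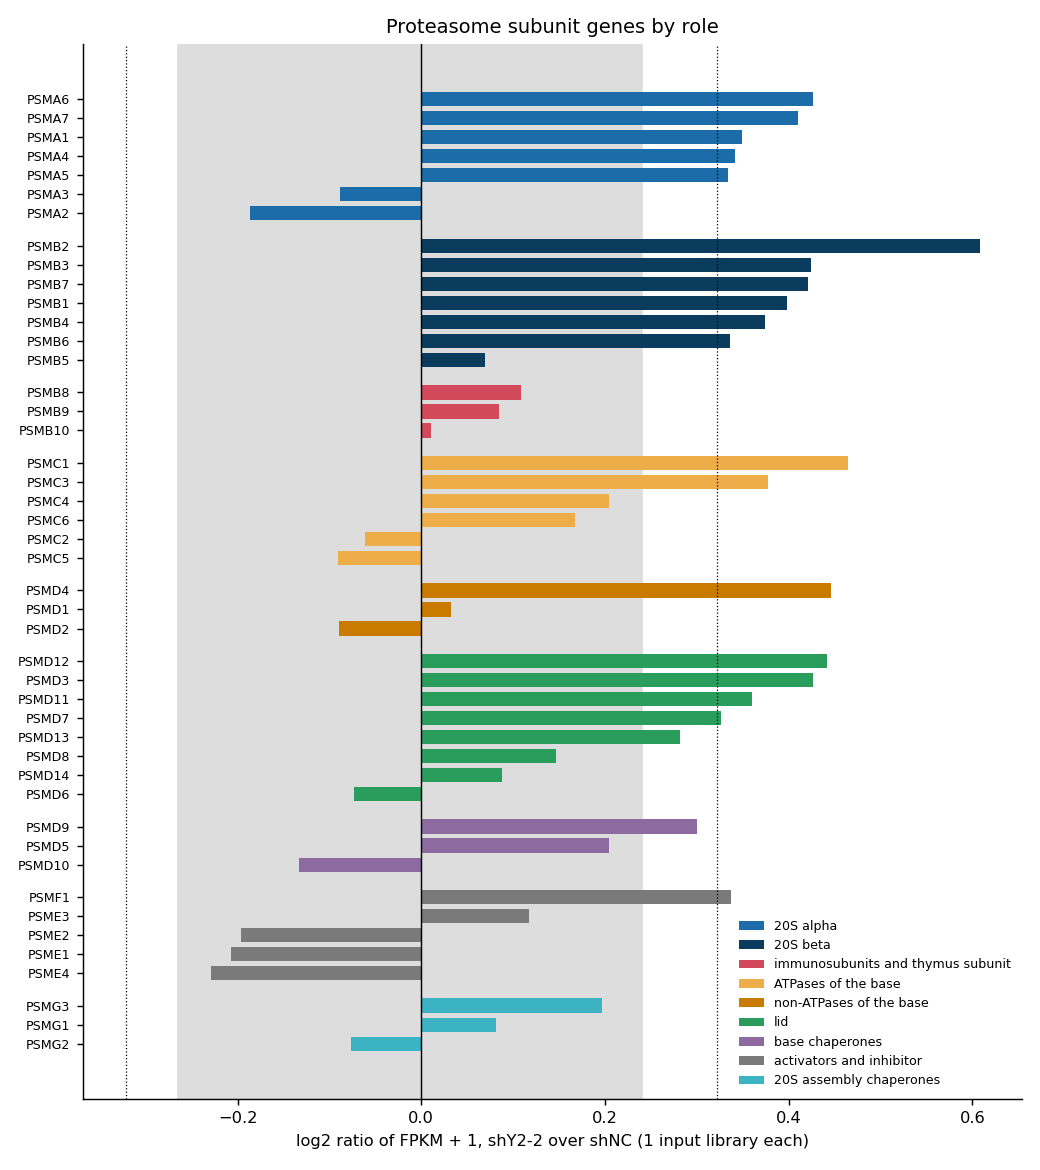
Log2 ratio of FPKM + 1 in the shY2-2 input over the shNC input (x axis) for the 45 expressed members, 1 bar each, ordered by role and then by ratio. Grey marks the middle 50% of all 12268 genes, dotted lines mark the limits of 25% higher and 20% lower, and bars of the beta ring all lie to the right of 0, from 0.07 for PSMB5 to 0.61 for PSMB2.

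The size of the 19 depended on the scale. When FPKM values were rescaled to the same sum in each library, the count past the upper limit went from 19 to 10 of the same 45 members (22.2%), near the 17.55% of the same 12268 genes that were then past it. The median of the members went to 0.14 and that of the 12268 genes to -0.061, and 32 of the 45 members were above 0, against 44.2% of the genes. Of the 19 genes, 10 had ratios between the limit and 0.4, so a small shift moves many of them over it. PSMD7, at 0.33, was the last gene past the limit, and PSMD9, at 0.30, the first that was not.

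Particle subunits and accessory factors differed in their values. The 31 genes for the barrel, the base and the lid had a median log2 ratio of 0.34, 18 of them past the upper limit, and the summed FPKM was 1452 in shNC and 1774 in shY2-2. The other 14 expressed genes (immunosubunits, activators, the inhibitor and assembly chaperones) had a median of 0.083, with 1 gene past the upper limit, and sums of 219 and 227 FPKM. Within the 31, 6 genes were below 0. The 31 were also more abundant, with a median of 37.2 FPKM in shNC against 15.2 FPKM for the 14. The part of this difference in level was not tested.

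The alpha ring had 5 of its 7 genes at least 25% higher and a median log2 ratio of 0.34. PSMA7, the most abundant alpha gene, was at 88.4 FPKM in shNC and 118 FPKM in shY2-2. PSMA6 was at 16.2 and 22.2 FPKM, a log2 ratio of 0.43, the highest of the ring, although its locus shares exon positions with a longer gene (ENSG00000258790, 4.54 and 4.48 FPKM), so the split of their reads is uncertain. PSMA1, PSMA4 and PSMA5 had ratios between 0.33 and 0.35. The exceptions were PSMA3, at 21.4 and 20.1 FPKM, and PSMA2, the least abundant gene of the ring, at 13.2 and 11.5 FPKM. PSMA3 had a log2 ratio of -0.09 and PSMA2 of -0.19. Exon positions of PSMA1 and PSMA2 are shared with other annotated genes on the same strand too, ENSG00000256206 at 1.05 and 1.28 FPKM and ENSG00000256646 at 0.0184 and 0.025 FPKM.

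The beta ring was the group with the highest median, 0.40, with all 7 genes above 0 and 6 at least 25% higher. PSMB2 was at 18.1 FPKM in shNC and 28.1 FPKM in shY2-2, the highest ratio of all members (0.61), at the 95.2 percentile of the ratios of all genes. It was at the same time the least abundant of the 7. PSMB3, a structural subunit and the most abundant proteasome gene of the set, was at 139 and 187 FPKM, a log2 ratio of 0.42. PSMB1 and PSMB4, also without catalytic activity, had log2 ratios of 0.40 and 0.37.

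The catalytic subunits had unequal ratios. PSMB7, which carries the trypsin-like activity, was at 103 FPKM in shNC and 138 FPKM in shY2-2, a log2 ratio of 0.42. PSMB6, which carries the caspase-like activity, was at 74.1 and 93.8 FPKM, a log2 ratio of 0.34. PSMB5, which carries the chymotrypsin-like activity and is the main target of proteasome inhibitors, was at 74.0 and 77.8 FPKM, a log2 ratio of 0.07, the lowest of the ring. Their inducible counterparts were expressed at much lower levels. PSMB10, the counterpart of PSMB7, was at 5.21 and 5.25 FPKM, PSMB8, that of PSMB5, at 3.95 and 4.34 FPKM, and PSMB9, that of PSMB6, at 1.90 and 2.08 FPKM. Per unit of length, RNA of the constitutive gene was 18.7 times (PSMB5 over PSMB8), 19.8 times (PSMB7 over PSMB10) and 39.0 times (PSMB6 over PSMB9) that of its counterpart in shNC, and 17.9, 26.3 and 45.2 times in shY2-2. None of the 3 immunosubunits passed a limit, and their median log2 ratio was 0.085.

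The 6 ATPases of the base had a median log2 ratio of 0.19. PSMC3 was at 66.0 FPKM in shNC and 86.0 FPKM in shY2-2, a ratio of 0.38. PSMC4, the most abundant, was at 113 and 131 FPKM (0.20), and PSMC6, the least abundant, at 9.12 and 10.4 FPKM (0.17). PSMC2 and PSMC5 were slightly lower in shY2-2, PSMC5 at 28.3 and 26.5 FPKM, with log2 ratios of -0.06 and -0.09. PSMC1 had the second highest ratio of all members, 0.46, from 15.3 and 21.5 FPKM, and its value is uncertain. A processed copy on chromosome 3, PSMC1P1, is 99.9% identical to its transcript over 1320 nt and was listed at 43.4 FPKM in shNC and 60.6 FPKM in shY2-2, above PSMC1 itself. Reads of such a pair can hardly be told apart, and both entries had about the same log2 ratio (0.46 and 0.47).

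Among the non-ATPase subunits of the base, PSMD4, a ubiquitin receptor, was at 51.9 FPKM in shNC and 71.0 FPKM in shY2-2, a log2 ratio of 0.45. The scaffold subunits PSMD1 and PSMD2, which hold ubiquitin receptors and shuttle factors, were at 47.7 and 48.8 FPKM and at 47.8 and 44.9 FPKM, log2 ratios of 0.03 and -0.09. The 3 genes were thus close in level in shNC and apart in shY2-2.

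The lid had 7 of its 8 genes above 0 and 4 at least 25% higher, with a median log2 ratio of 0.30. PSMD12 was at 14.1 FPKM in shNC and 19.6 FPKM in shY2-2 (0.44), and PSMD3 at 41.3 and 55.8 FPKM (0.43). PSMD11 had a log2 ratio of 0.36. PSMD8, the most abundant lid gene, was at 126 and 140 FPKM, a log2 ratio of 0.15. PSMD14, the deubiquitinase of the lid, was at 21.3 and 22.7 FPKM, a log2 ratio of 0.09, and PSMD6, the least abundant, at 9.52 and 8.998 FPKM, a log2 ratio of -0.07. The 31 genes of the particle spanned a 15.2-fold range of FPKM in shNC (9.12 for PSMC6 to 139 for PSMB3). In shY2-2 they spanned a 20.7-fold range (8.998 for PSMD6 to 187 for PSMB3). The barrel holds its different subunits in equal numbers, and so does the cap.

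**Figure D2:**
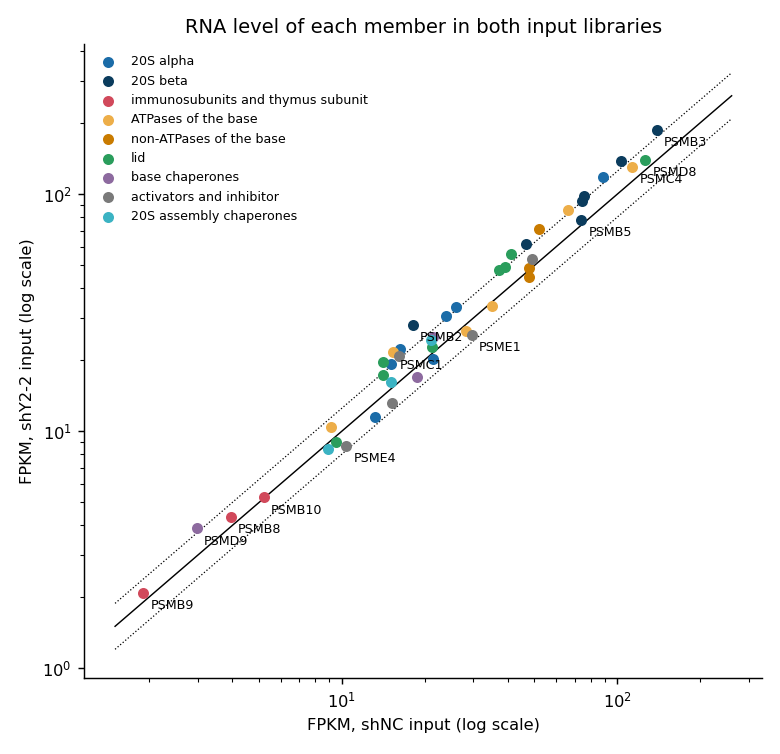
FPKM of the 45 expressed members in the shNC input (x axis) and the shY2-2 input (y axis), both on log scales, coloured by role. The solid line marks equal values and the dotted lines 25% higher and 20% lower; members stay close to the line over the whole range, and the 10 members between 60 and 200 FPKM all lie above it.

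The activators were the group with the lowest values. PSME1 and PSME2, the interferon-inducible PA28 pair that opens the barrel without ubiquitin, were at 29.6 and 25.5 FPKM and at 15.2 and 13.2 FPKM, log2 ratios of -0.21 and -0.20. PSME4, the large activator PA200, was at 10.4 FPKM in shNC and 8.69 FPKM in shY2-2, a log2 ratio of -0.23. PSME3, the nuclear PA28 gamma and the most abundant activator, was at 48.9 and 53.1 FPKM (0.12). PSMF1, the inhibitor PI31, was the exception with 16.2 and 20.7 FPKM, a log2 ratio of 0.34. All 3 genes at the lower end of the members were thus activators, none of which passed the lower limit.

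The chaperones that help to build the particle stayed within the limits. Among those of the base, PSMD5, the most abundant of them, was at 21.4 and 24.8 FPKM, PSMD9 at 2.97 and 3.89 FPKM and PSMD10, also known as gankyrin, at 18.7 and 17.0 FPKM, with log2 ratios of 0.20, 0.30 and -0.13. Among those of the barrel, PSMG3, the most abundant, was at 21.0 and 24.2 FPKM (0.20), PSMG1 had a log2 ratio of 0.08 and PSMG2 of -0.08.

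Level and transcript length moved with the ratio over all genes, so members were set beside other genes of like level and length. Over all genes kept, Spearman's rho of the log2 ratio was 0.134 with mean FPKM and -0.251 with the length of the reference transcript. Over the 45 members the values were 0.398 and 0.116; all points of each share the same pair of libraries. With a mean of 10 to 200 FPKM, the median log2 ratio was 0.082 for 3486 genes that are not members and 0.33 for 37 members. Within this range the members had the higher levels, with a median of 29.6 FPKM in shNC against 19.0 FPKM. In narrower ranges the medians were closer. From 5 to 20 FPKM they were 0.026 for other genes and 0.082 for 15 members. From 20 to 60 FPKM they were 0.10 and 0.20 (17 members). From 60 to 200 FPKM they were 0.16 and 0.38 (10 members), and from 1 to 5 FPKM -0.043 and 0.11 (3 members). At 10 to 200 FPKM and under 1000 nt, the median was 0.22 for other genes and 0.37 for 9 members. At the same level and from 1000 to 1500 nt it was 0.19 for other genes and 0.13 for 8 members. From 1500 to 2500 nt it was 0.14 and 0.24 (8 members), and at 2500 nt or more -0.041 for 1741 other genes and 0.34 for 12 members. The medians of members and other genes were thus furthest apart at 2500 nt or more, and from 1000 to 1500 nt that of the members was the lower one. The part of level and length in the members' values was not tested.

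Other large complexes had medians above that of all genes too, but not all had a raised share past the limit that 18.5% of all genes passed. The 81 expressed genes of the cytosolic ribosome had a median log2 ratio of 0.36 with 47 genes (58.0%) at least 25% higher, a higher median than that of the proteasome genes. The nuclear genes of the respiratory chain (76 genes) had a median of 0.15 with 14 (18.4%) at least 25% higher, and the 8 genes of the chaperonin CCT had a median of 0.11 with 1 (12.5%) at least 25% higher.

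**Figure D3:**
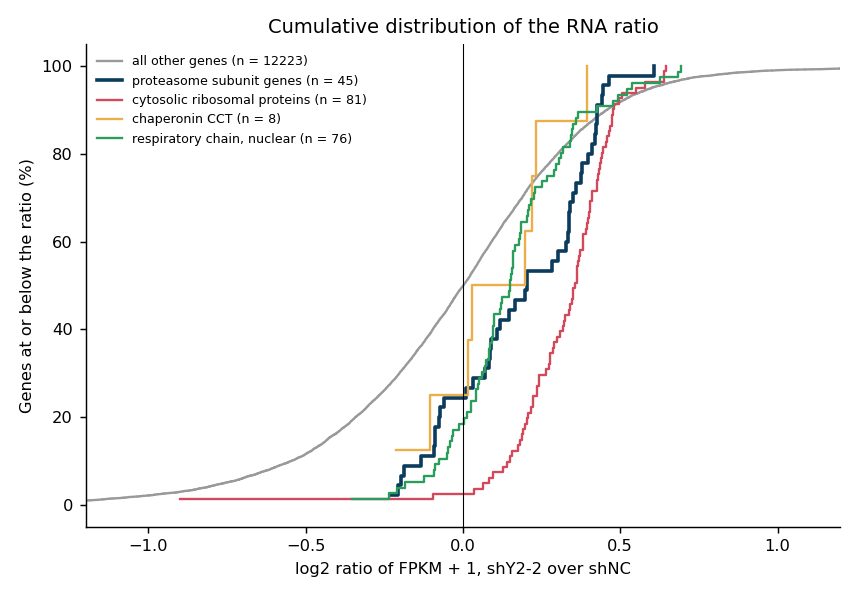
Share of genes (y axis, percent) at or below each log2 ratio of FPKM + 1, shY2-2 over shNC (x axis), for the 45 members, 3 other gene families and the 12223 genes that are not members. From a ratio of about 0.1 to about 0.4 the curve of the members lies between those of the respiratory chain and the cytosolic ribosome. It is to the right of that of all other genes up to about 0.4.

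Of 26 genes that act with the proteasome, 8 (30.8%) were at least 25% higher in shY2-2, against 18.5% of all genes. At least 20% lower were 2 (7.69%), against 21.0% of all genes, and 16 were in between. The median log2 ratio was 0.15. UBB, a gene for polyubiquitin, was at 264 FPKM in shNC and 267 FPKM in shY2-2. AKIRIN2, an adaptor for the import of proteasomes into the nucleus, was at 13.1 and 22.8 FPKM (0.75). POMP, which matures the barrel, was at 24.4 and 31.4 FPKM (0.35). Of the genes that deliver substrates, UFD1 (6.73 and 9.73 FPKM) and NPLOC4 (19.8 and 26.2 FPKM) were at least 25% higher, and RAD23B (60.7 and 51.5 FPKM) had a log2 ratio of -0.23. ZFAND5, a factor that stimulates the proteasome, was at 23.9 and 30.2 FPKM (0.32). The lower genes were UBA1, the main ubiquitin-activating enzyme, at 69.1 and 51.6 FPKM (-0.41), and UCHL5, a deubiquitinase of the base, at 6.51 and 4.79 FPKM (-0.37). ADRM1, the ubiquitin receptor to which UCHL5 binds, was at 85.7 and 107 FPKM, a log2 ratio of 0.31, just under the limit.

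NFE2L1, the transcription factor known for raising proteasome genes together when the proteasome is inhibited, was at 34.4 FPKM in shNC and 32.6 FPKM in shY2-2, and its processing factors DDI2 and NGLY1 had log2 ratios of 0.10 and -0.12. NFE2L2, a related factor of the oxidative stress response, was at 7.41 and 10.8 FPKM, a log2 ratio of 0.49. Both factors bind antioxidant response elements, whose core was searched as TGACNNNGC on both strands in windows from 250 bases before to 50 bases after each start site (RefSeq, GRCh38.p14). Of the 47 members, 41 had such a window, and 15 of these (36.6%) held the core in at least 1 window, where 19.8% of the expressed genes with a window held it. Counted by window, it was in 30.0% of 50 member windows and in 13.3% of all 35116 windows. Among the 6 members with the highest ratios, 5 had a window and 2 held the core, and among the 6 with the lowest ratios, all 6 had a window and 4 held it. The median log2 ratio was 0.085 for the 15 expressed members with the core and 0.16 for the 24 with a window and without it.

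The cores of the members at both ends of the ratio are shown, each on the strand of its gene with the core in capitals and the flanking bases in lower case. The first pair of genes were at least 25% higher and the other 4 had ratios below 0, and a core on the opposite strand reads as GCNNNGTCA. The sequences lie at chr17:67366724-67366752 (PSMD12, minus strand), chr17:39980760-39980788 (PSMD3, plus strand), chr17:63827654-63827682 (PSMC5, plus strand), chr14:24136098-24136126 (PSME1, plus strand), chr14:24146767-24146795 (PSME2, minus strand) and chr2:53971009-53971037 (PSME4, minus strand).
PSMD12: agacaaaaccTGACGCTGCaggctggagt
PSMD3: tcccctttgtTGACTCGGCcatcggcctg
PSMC5: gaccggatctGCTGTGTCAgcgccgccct
PSME1: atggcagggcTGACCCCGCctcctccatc
PSME2: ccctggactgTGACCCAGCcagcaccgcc
PSME4: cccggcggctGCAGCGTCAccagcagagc
The core began 165 bases before the start site in PSMD12, 37 in PSMD3, 57 in PSMC5, 86 in PSME1, 175 in PSME2 and 34 in PSME4. PSMD3 held another core after its start site. The windows of PSMB2, PSMC1 and PSMA6 held none, which says only that these letters were not found there, and PSMD4 had no window.

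m6A peaks were called by the authors in each line from 1 IP library over its input library. All members but PSMB11 had a peak in each list, 46 of 47 genes, where 81.2% of the expressed genes had a peak in shNC, 78.4% in shY2-2 and 72.7% in both. The lists held 155 member peaks in shNC and 148 in shY2-2, with a median of 3 per gene in each. More peaks were listed in shNC for 10 genes and in shY2-2 for 14, and 22 had as many in both. With the deposited FDR at most 0.05, 43 of the 47 genes had a peak in both lists, where 51.0% of the expressed genes had one. Over genes of 10 to 200 FPKM that are not members the share was 81.6%, and over the members of that range 97.3%. At this FDR 86.5% of the member peaks of shNC overlapped a peak of shY2-2 and 92.3% of those of shY2-2 one of shNC, against 73.3% and 85.7% for other genes of 10 to 200 FPKM.

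Fold enrichments of member peaks were mostly low. The median fold enrichment of IP over input was 2.10 in shNC and 1.95 in shY2-2, against 1.84 and 1.87 for peaks of other genes of 10 to 200 FPKM. Of the 25 member peaks in shNC with a fold enrichment of at least 4, 12 had an FDR above 0.05, as did 9 of 18 in shY2-2. Such peaks were common in the whole lists, with 3004 in shNC and 3770 in shY2-2. All peaks of at least 4, counted over the genes of the expression table only, numbered 5839 and 6148. The members were thus not set apart by this. The strong peaks described next all had an FDR at most 0.05 in their list.

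PSMB2 had the strongest recurrent peak. It lay in the 3' UTR, at chr1:35601756-35602892 in shNC and chr1:35601935-35602862 in shY2-2 (GRCh38), with fold enrichments of 19.6 and 29.3 and deposited log10 FDR scores of -13.2 and -21.3. PSMD12 had a 3' UTR peak of the same kind at chr17:67338605-67339474 and chr17:67338485-67339384, with fold enrichments of 10.7 and 27.8 and log10 FDR scores of -3.35 and -5.34. These are the members with the highest and the fourth highest RNA ratio. Over all 45 expressed members, Spearman's rho of the RNA ratio with the mean of each gene's highest fold enrichments was 0.097, a description over points that share the same libraries. The 19 members at least 25% higher had a median highest fold enrichment of 2.65 in shNC and 2.76 in shY2-2, and the 11 members with ratios below 0 of 3.56 and 2.89.

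Other strong peaks differed more between the lists or had a counterpart of similar enrichment. PSMA6 had a peak at chr14:35314315-35314645 with a fold enrichment of 29.8 and a log10 FDR score of -45.0 in shNC. In shY2-2 a longer peak of 2309 exonic bases covered that place with a fold enrichment of 5.15. Both peaks lie within the span of the overlapping ENSG00000258790, so their values may not be those of PSMA6 alone. PSMB7 had a peak with 1.65 in shNC, which the authors placed in an exon outside the 5' UTR, and a longer one with 10.4 in shY2-2 that covered it and reached into the 5' UTR. PSMC1 had a peak with 10.4 in shY2-2 (log10 FDR score -3.10) next to one of 1.76 in shNC; the regions share 1 base, so the values come from adjacent stretches. PSMD10, an assembly chaperone of the base, had a peak in the 5' UTR in both lists, with 5.04 in shNC and 6.31 in shY2-2 (log10 FDR scores -6.40 and -15.9). PSMC1 had 14 peaks in shNC and 6 in shY2-2, with the same doubt about reads of its copy as for its level. PSMG4, the chaperone of under 1 FPKM, had a peak with 11.4 in shNC at a log10 FDR score of -1.67. PSMA2 had 9.92 in shNC, and its strongest peak in shY2-2 had 3.63. The peak with 9.92, at chr7:42912529-42932174, runs past the listed span of PSMA2 (chr7:42916857-42932223). It lies within that of the overlapping ENSG00000256646, so its value is not that of PSMA2 alone. PSMB8 had a single peak in each list, in its 3' UTR, with 4.34 and 4.22.

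Where a peak of 1 list overlapped 1 peak of the other and both had an FDR at most 0.05, the fold enrichments were compared directly. There were 66 such pairs in 36 members, and the enrichment was higher in shY2-2 in 27 and lower in 39. The median log2 of the ratio between the enrichments was -0.043, and that over 7388 pairs of all genes was -0.041, with 44.6% of those pairs higher in shY2-2. The middle 50% of these log2 values ran from -0.26 to 0.16 in members and from -0.30 to 0.18 over all genes. Of the 66 pairs, 57 were within 1.5-fold of each other. The counts at 1.5-fold and 2-fold were made in members only, so they show no trait particular to the members. A difference of at least 2-fold was found in 6 pairs, or in 5 of the 65 pairs that share at least 50% of the shorter peak, which leaves out the PSMC1 pair with its 1 shared base. PSMB7, PSMC1, PSMD12 and the second peak of PSMA3 (1.53 and 4.24) were higher in shY2-2, and the first peak of PSMA3 (7.25 and 2.55) and a 3' UTR peak of PSME4 (6.49 and 1.74) were lower.

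**Figure D4:**
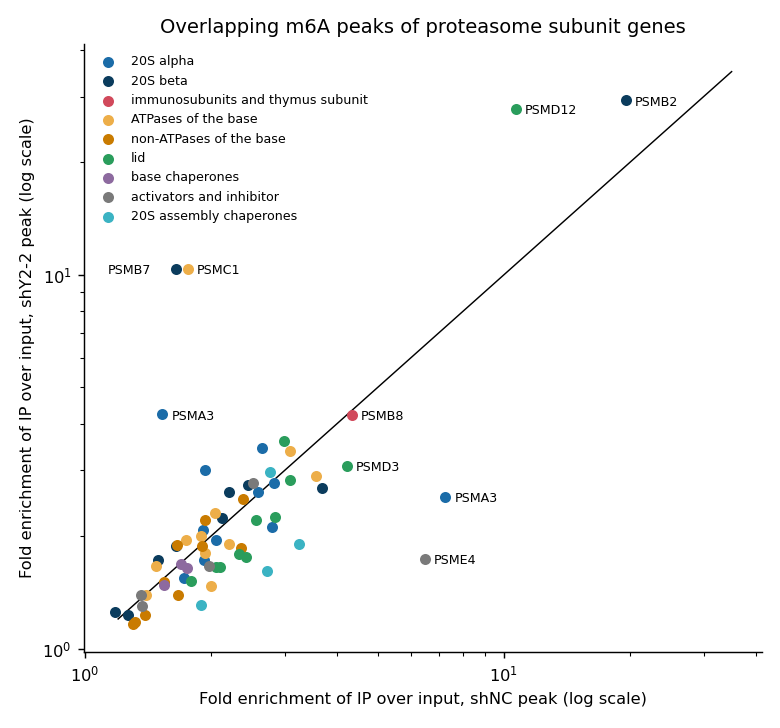
Fold enrichment of IP over input of 66 pairs of overlapping peaks in 36 members, shNC (x axis) and shY2-2 (y axis), both on log scales, coloured by role; the line marks equal values. Most pairs lie between 1 and 4 near the line, PSMB2 and PSMD12 stand at the upper right, and the labelled points are pairs with an enrichment above 4 or a difference of at least 2-fold.

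The authors assigned every peak to a single location. In shNC 90 member peaks (58.1%) lay in a 3' UTR, 38 (24.5%) in a 5' UTR and 27 (17.4%) in another exon, and in shY2-2 83, 40 and 25. Other genes of 10 to 200 FPKM had 58.3% of their shNC peaks in a 3' UTR, 18.5% in a 5' UTR and 23.2% in another exon. Set against the reference transcript of each gene, where 1 peak can touch several parts, 76.8% of the member peaks of shNC touched the coding sequence and 38.7% the 3' UTR, while for other genes of that range 55.8% and 49.2% did.

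Along the scaled transcript, peaks with an FDR at most 0.05 covered most of the end of the coding sequence of members. The last 5 of 50 bins of the coding sequence were covered by 76.2% on average in both lists, the middle of it by 47.8% in shNC and 44.04% in shY2-2, and the first 10 of 30 bins of the 3' UTR by 60.6% and 62.1%. For 3272 other genes of 10 to 200 FPKM the same parts had 44.05%, 24.1% and 44.7% in shNC. The rise near the stop codon is the known place of m6A in mRNA, and members had it together with more coverage of the rest of the coding sequence. In genes of 10 to 200 FPKM with transcripts from 500 to 2000 nt, the middle of the coding sequence was covered by 64.3% in 24 members and by 36.8% in 1093 other genes in shNC, and by 63.1% and 35.9% in shY2-2.

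**Figure D5:**
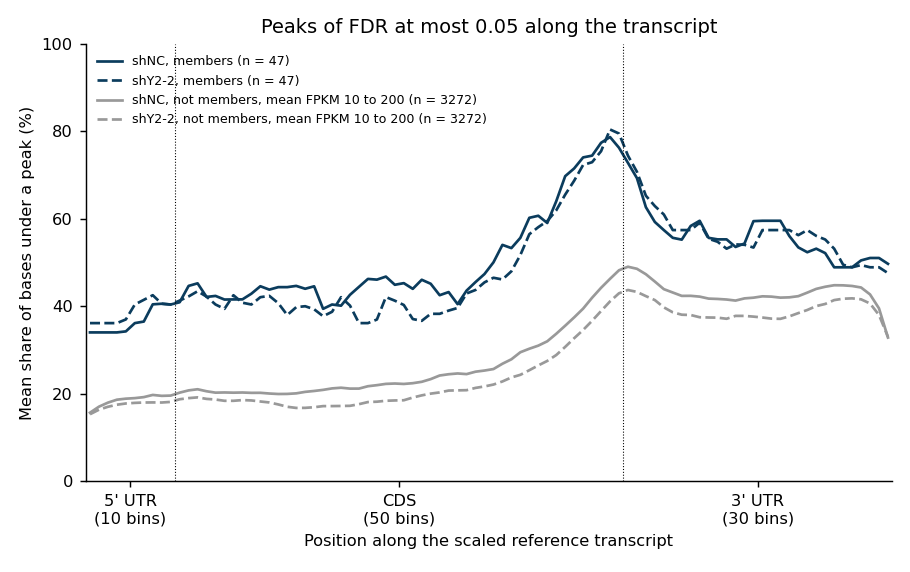
Mean share of bases under a peak with an FDR at most 0.05 (y axis, percent) along the 5' UTR, coding sequence (CDS) and 3' UTR of the reference transcript, each scaled to a fixed number of bins (x axis). Dark lines are the 47 members and grey lines 3272 other genes with a mean of 10 to 200 FPKM, solid for shNC and dashed for shY2-2; both kinds peak near the stop codon, and the members lie above the others throughout.

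GGACT, the most common form of the motif in which m6A is placed, was searched on the transcript strand. Within 100 bases to each side of the centre of peaks with an FDR at most 0.001 it was present in 24.2% of 91 member peaks and 21.9% of 9441 peaks of all genes in shNC, and in 25.6% of 86 and 22.7% of 8141 in shY2-2. For 39 members an overlapping pair of peaks reached an FDR at most 0.001 in both lists, and in the pair with the strongest enrichment 19 of the 39 held GGACT in the common bases. These common bases had no fixed length, from 144 nt in PSMD11 to 1164 nt in PSMC4, and longer stretches hold the motif more often. The same count was not made over all genes, so the 19 cannot be set beside the shares above. The sites below are those of the 5 members with the highest enrichment in both lists whose GGACT lies in the reference transcript, with GGACT in capitals. They lie at chr17:67338909-67338933 (PSMD12, minus strand, 3' UTR), chr14:52727589-52727613 (PSMC6, plus strand, coding sequence), chr17:39997517-39997541 (PSMD3, plus strand, coding sequence), chr14:24138864-24138888 (PSME1, plus strand, 3' UTR) and chr17:38764151-38764175 (PSMB3, plus strand, coding sequence).
PSMD12: tgtcaaacctGGACTatttggccaa
PSMC6: agtctaaattGGACTacaaacctgt
PSMD3: gagaacagcaGGACTtggagtttgc
PSME1: tttttactggGGACTccagattttc
PSMB3: aggcccgaatGGACTaaccctgttc
The fold enrichments of these pairs were 10.7 and 27.8 for PSMD12, 3.08 and 3.37 for PSMC6, 4.22 and 3.08 for PSMD3, 3.49 and 2.89 for PSME1 and 3.69 and 2.69 for PSMB3, shNC first. The 928 common bases of the PSMB2 peak, the strongest of all, held no GGACT.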

How the data were processed

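Poly(A) RNA of A549 cells was sequenced as 1 input and 1 m6A IP library per line (shNC and shY2-2). Per the labels and methods, the authors cleaned reads with fastp and aligned them to GRCh38 by HISAT2; StringTie gave the deposited FPKM of each gene in the inputs. They called peaks with exomePeak, IP over input in each line, and annotated them with ChIPseeker. Tool versions and the annotation release are not given in the sources used here. The deposited peak lists hold a p-value, log10 scores of p-value and FDR, and a fold enrichment, the linear ratio of IP over input; the largest deposited p-value is 0.049. FPKM are not counts, the depth is unknown, and so is the precision it would give.

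Log2 ratios were log2((shY2-2 FPKM + 1)/(shNC FPKM + 1)), with genes kept at 1 FPKM or more in at least 1 input. Limits (25% higher, 20% lower, and 2-fold, all on the scale of FPKM + 1) count values at or past them. Counts were set beside those over all genes kept; with 1 library per group nothing was tested. Locations, lengths, shared exons and copies (blastn 2.17.0, at least 95% identity over 300 nt) used GENCODE release 44, GRCh38, which holds all 47 members, 7 with the same start and end. Peaks overlapped if exonic blocks on the same strand shared 1 base. No column of values was left without a sample. Members, gene lists and limits were chosen with earlier results of these data known. Named genes are the 6 highest and 6 lowest ratios, the highest and lowest mean FPKM of each role, the catalytic subunits and immunosubunits, the members with the 5 highest peak enrichments and those with overlapping peaks of FDR at most 0.05 in both lists; PSMF1 was named after its values were seen, and other genes come from lists. Single values of some listed genes are not reported here. Scripts (Python 3.11.15, pandas 2.3.3, NumPy 2.4.6) were tested on simulated data.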

Additional observations from a re-analysis of the deposited data

How the results depend on the processing

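Every value rests on 1 library per group, with unknown depth, so none has an error. Of 157 values recomputed for the comparisons, 120 kept their sign and stayed within 1.5 times the reported value, among them the median of all members under every alternative (lowest 0.137, after FPKM were rescaled to the same sum). Rescaling, chosen after the data were seen, gave 10 members at least 25% higher (22.2%, against 17.55% of all genes), a median of 0.0536 for the immunosubunits, and turned the median of the non-ATPases of the base to -0.0339; the cause was not tested beyond the shift it gives to all genes. At 5 FPKM or more the medians of the immunosubunits and base chaperones were 0.0105 and 0.0359, each with fewer genes, and without a filter that of the immunosubunits was 0.0556. Without members that share exon positions the base chaperones were at 0.0359. Of 135 recomputed ratios of single members, 119 stayed within 1.5 times and none of those past a limit changed sign.

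Peak counts followed the limits on peaks by construction. At an FDR at most 0.05, 13 shY2-2 peaks lay in another exon. At an FDR at most 0.001, 4 members had no peak, 10 and 7 peaks (shNC, shY2-2) lay in another exon and 56 shNC peaks in a 3' UTR. At a fold enrichment of at least 2, 5 members had no peak, 45 and 46 peaks overlapped, and locations were 22, 13 and 51 in shNC (5' UTR, other exon, 3' UTR) and 25, 9 and 35 in shY2-2. At 4 or more, 17 and 14 members had a peak, 9 in both and 25 in neither, 6 and 6 peaks overlapped, and locations were 6, 2 and 17 and 6, 4 and 8. Set against the reference transcript, 119 and 110 peaks touched the coding sequence and 25 shY2-2 peaks a 5' UTR. The shorter core TGANNNNGC was in the windows of 27 members (65.9%) and of 50.9% of expressed genes with a window. No paired analysis was possible because each group has 1 library and the result comes from no test.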

Other observations

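The table lists 16 loci with PSM in their symbol that the naming rule leaves out, processed copies, antisense transcripts and a gene for another protein. PSMC1P1 was the only processed copy among them past 1 FPKM, at 43.4 FPKM in shNC and 60.6 FPKM in shY2-2. PSMA3-AS1, transcribed from the strand opposite to PSMA3, was at 1.93 FPKM in shNC and 1.04 FPKM in shY2-2, a log2 ratio of -0.52, while PSMA3 itself had -0.09. PSMG3-AS1 was at 1.29 and 1.18 FPKM. The other antisense entries were under the limit of 1 FPKM in both inputs. PSMD5-AS1 was at 0.774 and 0.485 FPKM, PSMB8-AS1 at 0.292 and 0.236 FPKM and PSMD6-AS2 at 0.111 and 0.142 FPKM. Whether the authors' counting used the strand is not given in the sources used here, so reads of these pairs may not be told apart. PSMC3IP, whose product acts in meiotic recombination and is no proteasome subunit, was at 6.07 and 6.75 FPKM.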
